A study of Danio rerio with 18 samples.

Results

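The tRNA pool of early zebrafish embryos was set against that of the unfertilized egg. The comparison took 6 of the 18 libraries of the series, chosen by their stage labels: 2 libraries of 256-cell embryos (2.5 hours post-fertilization, hpf), 2 of 1000-cell embryos (3 hpf) and 2 of eggs (0 hpf). All 6 came from wild-type fish of the TLAB strain, a cross of the TL and AB strains, with no mutation or drug treatment in either embryos or eggs. Embryos developed in E3 medium, and whole embryos were pooled for each library (50 per the labels, while the methods give a range). Eggs were not activated and were pressed out of anesthetized females, so they had not been fertilized. The labels place both embryo stages in the blastula. The study used 12 libraries for tRNA abundance over 6 stages and 6 libraries for tRNA charging, none of which came from eggs, 256-cell or 1000-cell embryos. The table held tRNAs alone, so the stages could not be checked against marker genes.

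A tRNA reads codons of an mRNA through its anticodon and delivers the matching amino acid to the ribosome. tRNAs that share an anticodon but differ elsewhere in sequence are called isodecoders, and together they make up an anticodon family. The egg is stocked with maternal RNA, and the embryo divides on this stock before its own genome, including the tRNA genes read by RNA polymerase III, is broadly transcribed. The study places the bulk of zygotic mRNA expression at about 3 hpf. It describes 1000-cell embryos as being in genome activation, but ahead of the bulk of tRNA expression.

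mim-tRNAseq, a method that reads tRNAs to full length through their modified bases, gave counts of uniquely mapped reads for 2578 nuclear tRNA entries. Of these, 2505 were single transcripts and 73 were groups of transcripts that the reads could not tell apart. Here 607 transcripts were detected, that is, they made up 0.005% or more of the nuclear counts of 1 or more of the 12 abundance libraries. A transcript could thus count as detected through a single library. Nuclear counts were 8525792 and 2107569 in 256-cell libraries and 1490198 and 2377566 in 1000-cell libraries, against 791432 and 2026080 in egg libraries. The shallowest egg library, replicate 1, set the limit for rare tRNAs, since its floor of 3 counts equals 0.000379% of its nuclear counts. Counts were normalized for depth by DESeq2, so each value is a level relative to the rest of the tRNA pool, and a change in the total amount of tRNA per egg or embryo could not be seen. In such bulk samples fewer cells that hold a tRNA and less of it per cell cannot be told apart.

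Replicate pools of 1 embryo stage differed no less than pools of the 2 embryo stages did. The median absolute log2 difference of the 607 transcripts between an embryo library and an egg library was 0.40 (0.28 to 0.46, 8 pairs). Between the 2 egg libraries it was 0.34. This difference was 0.41 to 0.46 with egg replicate 1, the shallowest library, and 0.28 to 0.40 with egg replicate 2. It was 0.36 between the 2 libraries of 256-cell embryos and 0.35 between the 2 of 1000-cell embryos, yet 0.23 to 0.29 over the 4 pairs made of a 256-cell and a 1000-cell library. The methods state that replicates were collected on different days. The p-values below rest on a spread per tRNA that was estimated over the replicate pools of all 6 stages. They do not measure the spread between egg pools alone. In fits that left out 1 egg library the eggs had no replicate, so passing or failing there rested on the spread at other stages. None of the 3 pairs of replicates could be 1 library deposited more than once, since their counts differed well beyond sampling noise.

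Of the 607 detected transcripts, 20 differed between embryos and eggs (DESeq2, 256-cell and 1000-cell embryos as 1 contrast against eggs, Benjamini-Hochberg adjusted p of at most 0.05), which is 3.29% of those tested. The embryos had 5 at a higher level (0.824%) and 15 at a lower level (2.47%), and 89 passed at an unadjusted p under 0.05. The median log2 change was -0.02, and the median size of a change in either direction was 0.29 on the log2 scale. All 20 were minor tRNAs, none above 0.103% of the nuclear counts on average over the 12 libraries. The 5 higher transcripts together made up 0.0586% ± 0.00532 of the nuclear counts in embryos (SD, n = 4) and 0.0170% ± 0.00193 in eggs (SD, n = 2), and the 15 lower ones 0.253% ± 0.0232 in embryos and 0.480% ± 0.104 in eggs. They belonged to 13 anticodon families and 12 amino acids, and 10 of the 20 (50.0%) had a single gene copy in the reference, as did 367 of the 607 detected transcripts (60.5%).

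The number and the split of calls moved with the scaling, with the model and with single libraries. TMM size factors gave 5 higher and 6 lower transcripts, and total nuclear counts 5 higher and 8 lower. A fit to the 6 compared libraries alone gave 4 higher and 3 lower. Adding a term for replicate number (a replicate block) gave 12 higher and 20 lower. The quasi-likelihood test of edgeR gave 2 higher and 0 lower, with 78 at an unadjusted p under 0.05. Its adjustment ran over all 2505 fitted transcripts and that of DESeq2 over 1081, so these numbers of calls are not like for like. Detection by the mean share over the 12 libraries left 16 of the 20 calls, 3 higher and 13 lower. With no detection threshold 29 transcripts passed, 12 higher and 17 lower, so the split also depended on the threshold. Without egg replicate 1 there were 8 calls, of which 3 were among the 20, and without egg replicate 2 there were 20, of which 6 were among them. Leaving out 256-cell replicate 1 or 2 gave 12 and 13 calls, and leaving out 1000-cell replicate 1 or 2 gave 6 and 7.

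**Figure D1:**
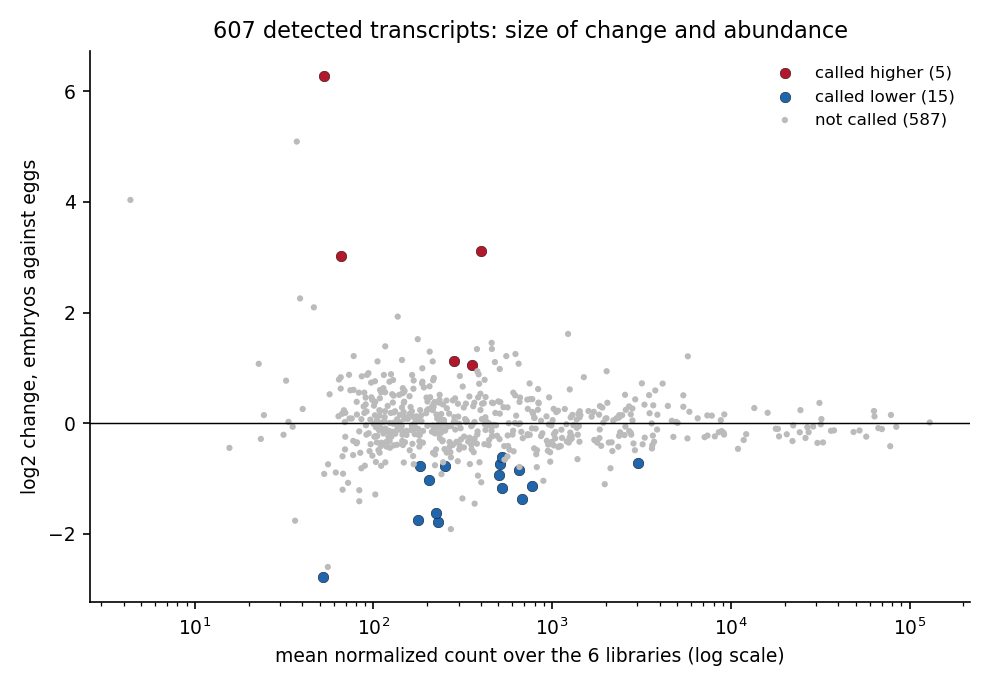
Each point is 1 of the 607 detected transcripts, by its mean normalized count over the 6 libraries (x, log scale) and its log2 change in 256-cell and 1000-cell embryos against eggs (y). The 5 transcripts called higher (red) and 15 called lower (blue) sit at low to middle abundance, and no transcript at the right end, among the most abundant tRNAs, was called.

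Among the detected transcripts, the largest rise was that of tRNA-Arg-UCU-24, an arginine tRNA that reads AGA codons and has 1 gene copy. It had 73.3 and 72.9 normalized counts in 256-cell embryos and 51.7 and 115 in 1000-cell embryos, against 3.21 and 0 in eggs. In raw counts this was 433 reads over the 4 embryo libraries and 1 read over both egg libraries, a ratio of rates of 82.0 (95% exact interval 14.6 to 3245, counting error alone). Every embryo library lay far above both egg libraries, where the tRNA was at the limit of detection. In every library compared it stayed below 0.005% of the nuclear counts, so it counted as detected only through sphere replicate 2. The fitted log2 change was 6.28 ± 1.36 (adjusted p = 0.00113, DESeq2 with Benjamini-Hochberg adjustment, as for all adjusted p-values of this contrast), and its size is poorly set with 1 egg read. Without egg replicate 2, which had no read, the log2 change was 4.61 and no longer passed (adjusted p = 0.0992), and without egg replicate 1 it was 8.31 and passed.

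tRNA-Val-AAC-7, a valine tRNA with 1 gene copy, had 447 and 767 normalized counts in 256-cell embryos and 512 and 534 in 1000-cell embryos, against 122 and 14.8 in eggs. All embryo libraries were above the eggs, and the eggs themselves lay far apart. Its log2 change of 3.12 ± 0.57 (adjusted p = 3.03e-05) was the one with the smallest adjusted p among the detected transcripts. It passed with each of the 4 embryo libraries left out in turn. The log2 change was 5.25 without egg replicate 1 and 2.20 without egg replicate 2, fits in which the eggs had no replicate. tRNA-Arg-UCU-24 and tRNA-Val-AAC-7 were the 2 transcripts that edgeR called too. Of the other valine isodecoders with this anticodon, none of the 22 detected ones was called. Below the detection threshold, tRNA-Val-AAC-5 and tRNA-Val-AAC-21 passed as higher and tRNA-Val-AAC-68 as lower, on few reads.

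The histidine tRNA-His-GUG-35, with 5 gene copies, had 53.4 and 152 normalized counts in 256-cell embryos and 45.2 and 121 in 1000-cell embryos, against 6.42 and 14.8 in eggs. Its embryo libraries were all above the eggs but differed widely among themselves, and replicate 2 was the higher one at both stages and in eggs. Of the libraries compared, only 256-cell replicate 2 reached 0.005% of the nuclear counts. The log2 change was 3.02 ± 0.76 (adjusted p = 0.00919). It did not pass without egg replicate 1 (2.65), egg replicate 2 (3.85), 256-cell replicate 2 (2.55) or 1000-cell replicate 2 (2.57).

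The other rises were smaller and tighter. tRNA-Tyr-GUA-14, a tyrosine tRNA with 1 gene copy, had 306 and 366 normalized counts in 256-cell embryos and 358 and 349 in 1000-cell embryos, against 141 and 172 in eggs. Its embryo libraries hardly varied, and the level was 2.17-fold that of eggs (log2 change 1.12 ± 0.25, adjusted p = 0.00145). The call was lost without egg replicate 1 alone (1.00, adjusted p = 0.22). tRNA-Ser-AGA-156, a serine tRNA with 1 gene copy, had 465 and 381 normalized counts in 256-cell embryos and 471 and 409 in 1000-cell embryos, against 193 and 223 in eggs. Here too the groups were well apart, at 2.07-fold (log2 change 1.05 ± 0.30, adjusted p = 0.03), although the call held without 1 of the 6 libraries only, 256-cell replicate 2, with log2 changes of 0.96 to 1.16.

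**Figure D2:**
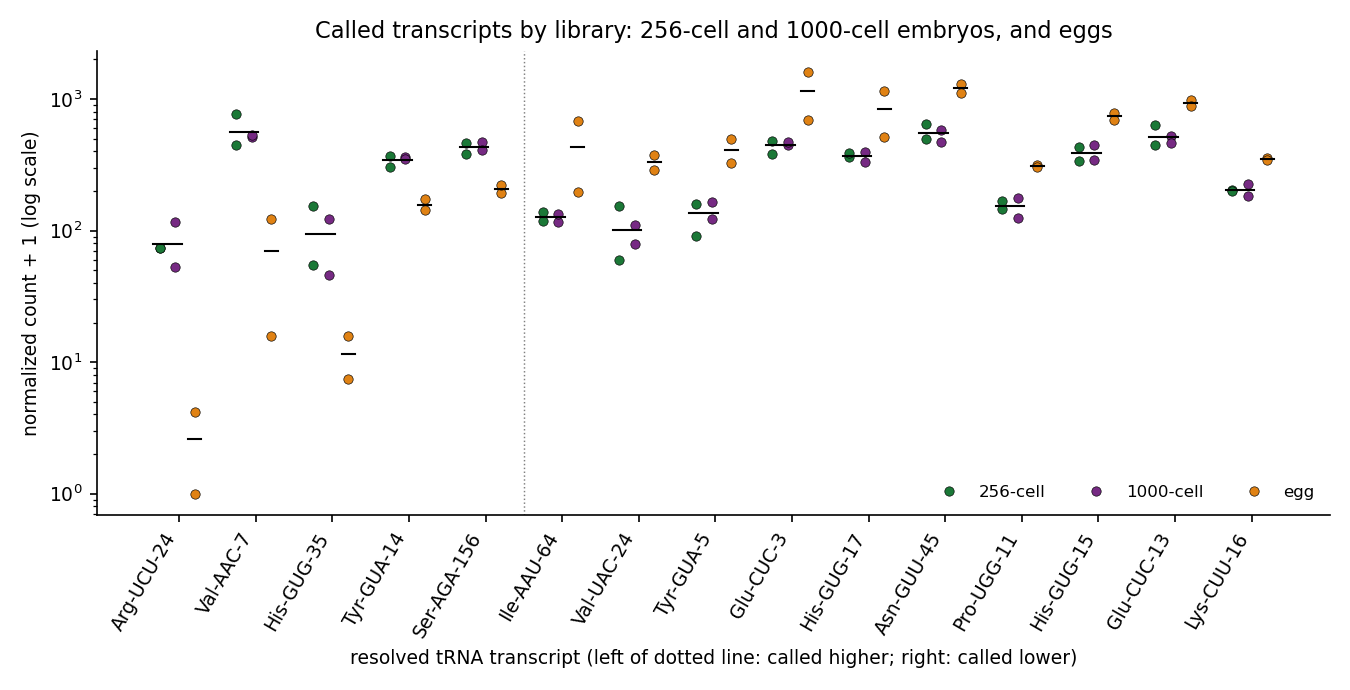
Normalized counts plus 1 (log scale) of the 5 transcripts called higher and the 10 largest falls with groups apart, with 256-cell (green) and 1000-cell (purple) libraries left of egg libraries (orange). Black bars are the means over 4 embryo and over 2 egg libraries. The falls shown were chosen for groups that do not overlap, and all 5 called rises met the same rule.

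Among the 15 falls, 14 had all 4 embryo libraries below both egg libraries. Over all 607 detected transcripts, such separation occurred for 58 transcripts that were higher in embryos (9.56%) and 92 that were lower (15.2%), 24.7% in all. The largest of these falls was in tRNA-Ile-AAU-64, an isoleucine tRNA with 1 gene copy, which had 117 and 137 normalized counts in 256-cell embryos and 115 and 133 in 1000-cell embryos, against 674 and 194 in eggs. The 4 embryo libraries were close to each other, and egg replicate 1 stood far above egg replicate 2. The log2 change of -1.78 ± 0.45 (adjusted p = 0.00919) became -0.63 without egg replicate 1 and was not called then, nor without 256-cell replicate 1 (-1.72) or 1000-cell replicate 1 (-1.73). The same egg library carried the falls of 2 further transcripts. The glutamate tRNA-Glu-CUC-3, with 1 gene copy, had 476 and 378 normalized counts in 256-cell embryos and 446 and 472 in 1000-cell embryos, against 1608 and 693 in eggs (log2 change -1.37 ± 0.33, adjusted p = 0.00746). The histidine tRNA-His-GUG-17, with 3 copies, had 359.6 and 385 normalized counts in 256-cell embryos and 397 and 329.8 in 1000-cell embryos, against 1152 and 514 in eggs (log2 change -1.17 ± 0.32, adjusted p = 0.0205). Without egg replicate 1 their log2 changes were -0.64 and -0.48 and neither passed. tRNA-Glu-CUC-3 also missed without 1000-cell replicate 1 (-1.35), and tRNA-His-GUG-17 passed without egg replicate 2 only (-1.65).

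In other falls the egg libraries lay closer together than in those above. tRNA-Val-UAC-24, a valine tRNA and, with 6 gene copies, the only one of the 20 with over 5 copies, had 58.3 and 153 normalized counts in 256-cell embryos and 77.5 and 109 in 1000-cell embryos, against 376 and 289.7 in eggs (log2 change -1.75 ± 0.49, adjusted p = 0.0255). The tyrosine tRNA-Tyr-GUA-5, with 1 copy, had 159 and 89.5 normalized counts in 256-cell embryos and 165 and 122 in 1000-cell embryos, against 324 and 492 in eggs (log2 change -1.61 ± 0.41, adjusted p = 0.00919). Both were lower in embryos than in either egg pool. tRNA-Asn-GUU-45, an asparagine tRNA with 4 copies, had 491 and 649 normalized counts in 256-cell embryos and 583 and 467 in 1000-cell embryos, against 1303 and 1110.3 in eggs (log2 change -1.14 ± 0.29, adjusted p = 0.00919). tRNA-Pro-UGG-11, a proline tRNA with 1 copy, had 144 and 166 normalized counts in 256-cell embryos and 123 and 175 in 1000-cell embryos, against 315 and 303 in eggs (log2 change -1.02 ± 0.28, adjusted p = 0.0209). For both tRNAs the embryo libraries overlapped neither egg library, and the eggs lay close together. With 1 library left out, the log2 changes ran between -2.17 and -1.46 for tRNA-Val-UAC-24, -1.88 and -1.28 for tRNA-Tyr-GUA-5, -1.26 and -1.02 for tRNA-Asn-GUU-45, and -1.17 and -0.90 for tRNA-Pro-UGG-11. Of these 6 fits, 4 kept the call of tRNA-Tyr-GUA-5 (lost without egg replicate 2 or 1000-cell replicate 2) and 2 kept each of the others, which were lost without either egg library, without 256-cell replicate 1 and without 1000-cell replicate 1 (replicate 2 for tRNA-Asn-GUU-45).

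Apart from tRNA-Asn-GUU-54, the remaining falls were each under 1 on the log2 scale. Those with groups apart among the 10 largest were tRNA-His-GUG-15 (-0.93 ± 0.29, adjusted p = 0.0491), the glutamate tRNA-Glu-CUC-13 (-0.84 ± 0.25, adjusted p = 0.0359) and the lysine tRNA-Lys-CUU-16 (-0.78 ± 0.21, adjusted p = 0.0209). tRNA-Met-CAU-45, an elongator methionine tRNA, tRNA-Gln-UUG-11, a glutamine tRNA, and tRNA-Lys-CUU-70 had log2 changes of -0.77 ± 0.22, -0.74 ± 0.22 and -0.61 ± 0.18. The most abundant of all 20 called transcripts was tRNA-Asn-GUU-176, which had 2083 and 2861 normalized counts in 256-cell embryos and 2791 and 2268 in 1000-cell embryos, against 4147 and 4081 in eggs (log2 change -0.72 ± 0.20, adjusted p = 0.0296). It made up 0.0972% ± 0.0168 of the nuclear counts in embryos (SD, n = 4) and 0.157% ± 0.00923 in eggs (SD, n = 2). Each of these 7 calls held in at most 1 of the 6 fits that left out a library, and all 7 were lost without egg replicate 1 and without egg replicate 2, at log2 changes between -1.02 and -0.48. The last call, tRNA-Asn-GUU-54, rested on a single library, since it had 23.2 and 14.1 normalized counts in 256-cell embryos and 14.5 and 17.6 in 1000-cell embryos, against 228 and 16.1 in eggs. Its groups overlapped, and the log2 change of -2.78 ± 0.86 (adjusted p = 0.0491) turned to 0.12 without egg replicate 1.

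In the families Tyr-GUA and His-GUG, DESeq2 called isodecoders of 1 anticodon in opposite directions. The quasi-likelihood test of edgeR called none of them (adjusted p of 0.119 to 0.385). Each of these DESeq2 calls was lost in some fit that left out a library. Within the tyrosine family Tyr-GUA, tRNA-Tyr-GUA-14 made up 0.192% and 0.258% in 256-cell embryos and 0.279% and 0.223% in 1000-cell embryos, against 0.111% and 0.107% in eggs. tRNA-Tyr-GUA-5 made up 0.1% and 0.063% in 256-cell embryos and 0.128% and 0.0783% in 1000-cell embryos, against 0.256% and 0.308% in eggs. tRNA-Tyr-GUA-14 was the larger of the pair in every embryo library and tRNA-Tyr-GUA-5 in both egg libraries, while the family as a whole had a log2 change of 0.08 ± 0.12 (adjusted p = 0.752). In the histidine family His-GUG, tRNA-His-GUG-35 rose and tRNA-His-GUG-15 and tRNA-His-GUG-17 fell, and the family's log2 change was 0.13 ± 0.11 (adjusted p = 0.519). tRNA-Val-AAC-7 made up 1.1% and 1.44% in 256-cell embryos and 1.01% and 1.32% in 1000-cell embryos, against 0.218% and 0.0293% in eggs of the family Val-AAC, which had a log2 change of -0.16 ± 0.16 (adjusted p = 0.605). tRNA-Asn-GUU-176 made up 4.81% and 4.95% in 256-cell embryos and 5.54% and 4.91% in 1000-cell embryos, against 6.11% and 7.1% in eggs of the asparagine family Asn-GUU. The other called transcripts each made up less than 2% of their families in any of the 6 libraries. Reads can be misassigned between isodecoders that differ by few bases, and how far this enters these values was not tested.

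Each embryo stage was also set against eggs on its own, with the same 2 egg libraries in both contrasts. At the 256-cell stage 6 of 607 transcripts were called (0.988%). tRNA-Arg-UCU-24 (6.18 ± 1.39), tRNA-His-GUG-35 (3.17 ± 0.84), tRNA-Val-AAC-7 (3.22 ± 0.65) and tRNA-Tyr-GUA-14 (1.08 ± 0.28) were higher (0.659%), and tRNA-Tyr-GUA-5 (-1.71 ± 0.47) and tRNA-Glu-CUC-3 (-1.42 ± 0.39) were lower (0.329%), all as log2 changes with their SE. At the 1000-cell stage 3 were called (0.494%), all of them higher: tRNA-Arg-UCU-24 (6.38 ± 1.39), tRNA-Val-AAC-7 (3.01 ± 0.65) and tRNA-Tyr-GUA-14 (1.16 ± 0.28). The number of calls with 1 library left out was 3 to 14 at the 256-cell stage, with 14 without egg replicate 2, and 0 to 16 at the 1000-cell stage, with 16 without egg replicate 2 and 0 without 1000-cell replicate 2.

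Between the embryo stages themselves, no transcript passed the test. In 1000-cell against 256-cell embryos DESeq2 called 0 of 607 transcripts and 11 passed at an unadjusted p under 0.05, and edgeR called 0, also with 11. The median size of a change was 0.12 on the log2 scale, against 0.29 for embryos against eggs. Of 47 anticodon families 0 were called by DESeq2, with 1 at an unadjusted p under 0.05, and 0 by edgeR, with 1. That family was Arg-UCU, which reads AGA codons. It made up 1.22% and 1.48% of the nuclear counts in 256-cell embryos and 1.79% and 1.75% in 1000-cell embryos, against 1.82% and 1.91% in eggs. The 256-cell libraries were the lowest, and the log2 change of the 256-cell stage against eggs, -0.45 ± 0.12 (adjusted p = 0.00959, DESeq2), was the only call among the 47 families at this stage (2.13%), while at the 1000-cell stage the value was -0.08 ± 0.12 (adjusted p = 0.856). The difference between the stages was 0.37 ± 0.12 on the log2 scale (adjusted p = 0.0963). edgeR did not call the family at the 256-cell stage (adjusted p = 0.0702), and the log2 change was -0.49 without egg replicate 1, -0.43 without egg replicate 2 and -0.34 without 256-cell replicate 1, none of which passed.

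The most abundant tRNAs held much the same part of the pool in embryos as in eggs. The 10 transcripts that were most abundant over the 12 libraries held 28.3% ± 0.229 of the nuclear counts in embryos (SD, n = 4) and 28.8% ± 0.580 in eggs (SD, n = 2; exact permutation test, two-sided p = 0.4, with 0.133 the smallest p that 4 against 2 libraries allow), and none of them was called. The first was the tyrosine tRNA-Tyr-GUA-2, with 135 gene copies, which made up 5.45% and 4.61% of the nuclear counts in 256-cell embryos and 4.82% and 5.3% in 1000-cell embryos, against 4.46% and 5.32% in eggs (log2 change 0.01 ± 0.19). The alanine tRNA-Ala-AGC-3, with 1 gene copy, made up 3.34% and 3.11% of the nuclear counts in 256-cell embryos and 3.16% and 3.26% in 1000-cell embryos, against 3.68% and 2.95% in eggs (log2 change -0.06 ± 0.17). For both tRNAs the embryo and egg libraries overlapped. The largest log2 change among the 10 was that of the aspartate tRNA-Asp-GUC-2, which had 66799 and 72834 normalized counts in 256-cell embryos and 75144 and 65929 in 1000-cell embryos, against 101435 and 85636 in eggs (-0.41 ± 0.16, adjusted p = 0.216). All 4 embryo libraries were below both eggs for this tRNA, as they were for tRNA-Glu-CUC-1 (-0.24 ± 0.17) and tRNA-Ile-AAU-23 (-0.16 ± 0.14), and all were above for tRNA-Cys-GCA-1 (0.22 ± 0.18). The other 4 were tRNA-Gly-UCC-2 (0.15 ± 0.20), tRNA-His-GUG-2 (0.12 ± 0.20), tRNA-Ala-CGC-1 (-0.11 ± 0.19) and tRNA-Pro-AGG-83 (-0.09 ± 0.14).

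Of the single transcripts that the study names, none was called here. The threonine tRNA-Thr-UGU-7 had 607 and 594 normalized counts in 256-cell embryos and 454 and 831 in 1000-cell embryos, against 507 and 727 in eggs (log2 change 0.01 ± 0.34), and tRNA-Thr-UGU-8 had a log2 change of 0.03 ± 0.16. The serine tRNA-Ser-UGA-19 had 2644 and 2559 normalized counts in 256-cell embryos and 1859.8 and 1788 in 1000-cell embryos, against 1688 and 1683 in eggs (log2 change 0.37 ± 0.16, adjusted p = 0.315). For the serine tRNA the 256-cell libraries were well above the eggs and the 1000-cell libraries just above them.

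At the level of anticodon families, summed over all their nuclear entries, DESeq2 called 0 of 47 families in embryos against eggs, with 8 at an unadjusted p under 0.05, and edgeR called 0, with 5. The median size of a change was 0.14 on the log2 scale, and the values ran from -0.33 ± 0.13 for the aspartate family Asp-GUC up to 0.45 ± 0.22 for the serine family Ser-UGA. In normalized counts all 4 embryo libraries lay above both eggs in 4 families (8.51%) and below both in 7 (14.9%). Asp-GUC made up 2.9% and 3.1% of the nuclear counts in 256-cell embryos and 3.55% and 2.84% in 1000-cell embryos, against 4.37% and 3.48% in eggs (adjusted p = 0.19). Asn-GUU had a log2 change of -0.31 ± 0.14 and the glutamate family Glu-UUC of -0.30 ± 0.17. In all 3 of these families the lower egg library lay within the range of the embryos. Ser-UGA made up 0.317% and 0.432% of the nuclear counts in 256-cell embryos and 0.493% and 0.294% in 1000-cell embryos, against 0.275% and 0.294% in eggs (adjusted p = 0.275). Here 256-cell replicate 2 and 1000-cell replicate 1 were high and the other embryo libraries close to eggs. The glycine family Gly-CCC had a log2 change of 0.33 ± 0.17 and the cysteine family Cys-GCA of 0.30 ± 0.11 (adjusted p = 0.19). Cys-GCA made up 3.44% and 3.11% of the nuclear counts in 256-cell embryos and 3.12% and 3.42% in 1000-cell embryos, against 2.66% and 2.72% in eggs, so all embryo libraries were above both eggs in this family.

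The largest family of the pool was the lysine family Lys-UUU, which made up 9.85% and 7.05% of the nuclear counts in 256-cell embryos and 6.45% and 9.08% in 1000-cell embryos, against 5.52% and 7.4% in eggs. Replicate pools of 1 stage thus differed as much as embryos and eggs did (log2 change 0.34 ± 0.21, adjusted p = 0.364), and summing its resolved transcripts alone gave -0.12. The next 3 families in size had log2 changes of 0.08 ± 0.12 (Tyr-GUA), -0.13 ± 0.10 (Glu-CUC) and 0.08 ± 0.09 (Arg-ACG). The initiator methionine tRNA, which starts protein synthesis in the cytosol, made up 2.56% and 3.86% of the nuclear counts in 256-cell embryos and 3.67% and 2.94% in 1000-cell embryos, against 3.53% and 3.22% in eggs (-0.04 ± 0.17). Its embryo libraries spanned both eggs. The elongator methionine family Met-CAU made up 1.75% ± 0.139 in embryos (SD, n = 4) and 2.15% ± 0.51 in eggs (SD, n = 2) (-0.29 ± 0.15, adjusted p = 0.275). The selenocysteine tRNA SeC-UCA, which inserts selenocysteine at UGA codons, was the rarest family, at 0.0105% ± 0.00124 in embryos (SD, n = 4) and 0.00862% ± 0.00103 in eggs (SD, n = 2) (0.30 ± 0.35, adjusted p = 0.617).

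**Figure D3:**
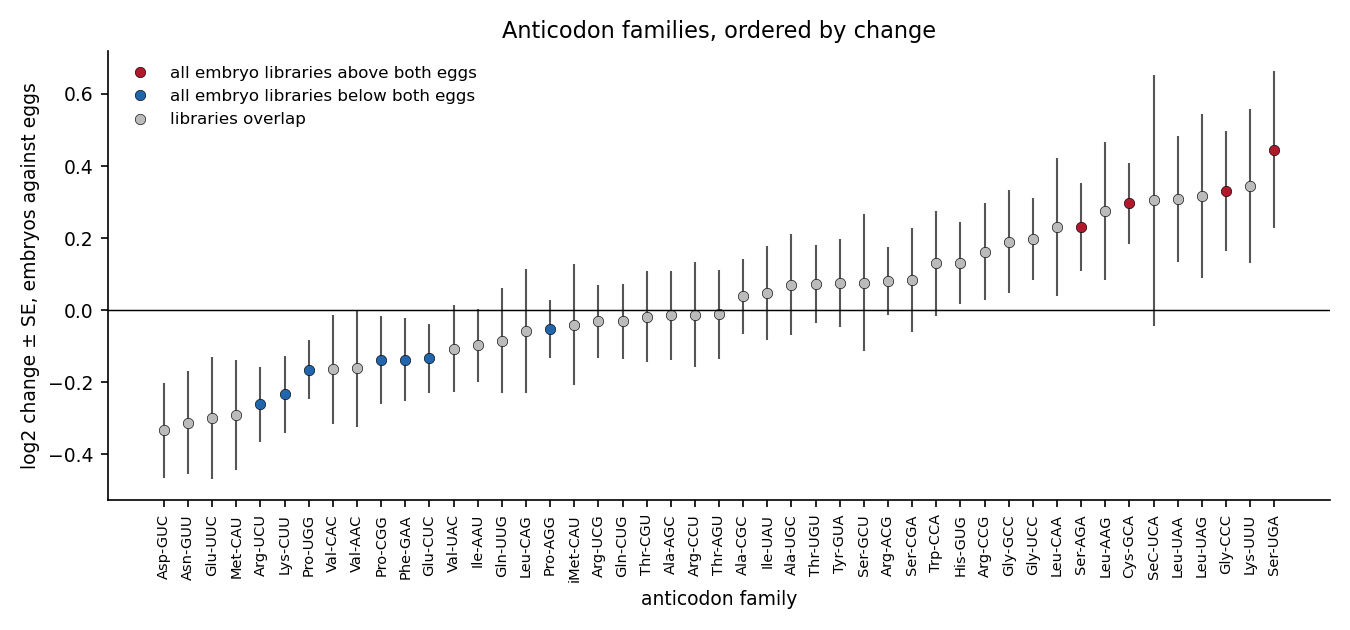
Log2 change with its SE for each of the 47 anticodon families in 256-cell and 1000-cell embryos against eggs, ordered by change. Red marks the 4 families with all 4 embryo libraries above both egg libraries in normalized counts, blue the 7 with all below, and grey the rest, and no family passed the test.

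The 22 amino-acid groups, with initiator methionine and selenocysteine kept apart, were tested in the same way, with size factors and spread estimated anew at this level. DESeq2 called 0 of them, with 4 at an unadjusted p under 0.05, and edgeR called 0, with 3. The largest fall in value was in aspartate tRNAs, at 3.09% ± 0.322 in embryos (SD, n = 4) and 3.92% ± 0.631 in eggs (SD, n = 2) of the nuclear counts (log2 change -0.32 ± 0.12, adjusted p = 0.119), and asparagine tRNAs followed (-0.30 ± 0.13, adjusted p = 0.175). Cysteine tRNAs had 3.27% ± 0.184 in embryos (SD, n = 4) and 2.69% ± 0.0427 in eggs (SD, n = 2) (0.31 ± 0.12, adjusted p = 0.119), and glycine tRNAs 6.99% ± 0.302 in embryos (SD, n = 4) and 6.13% ± 0.242 in eggs (SD, n = 2) (0.22 ± 0.11, adjusted p = 0.222). In normalized counts the embryo libraries lay above both eggs for cysteine, glycine and serine tRNAs (13.6% of the groups) and below both for glutamate tRNAs (4.55%). The selenocysteine tRNA had the highest log2 change, 0.33 ± 0.23, but with a wide error.

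**Figure D4:**
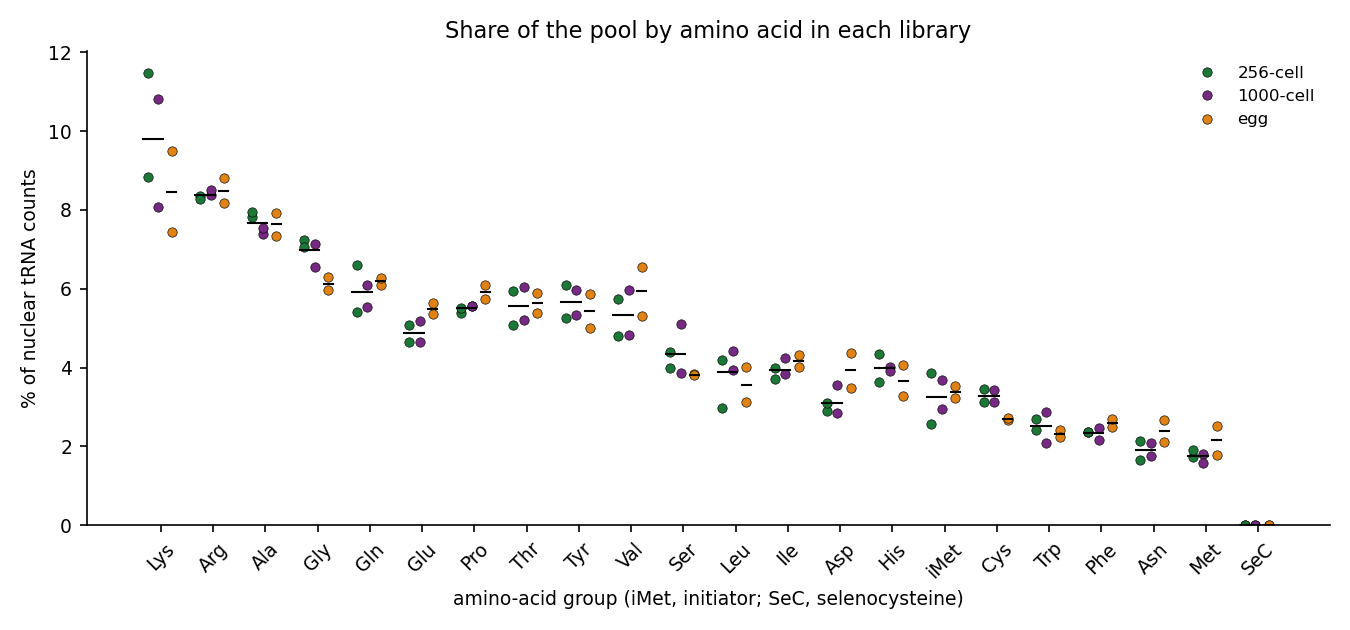
Share of the nuclear tRNA counts (%) held by each of the 22 amino-acid groups, ordered by mean share, with 256-cell and 1000-cell libraries left of egg libraries and black bars for the means over 4 embryo and 2 egg libraries. The shares of embryos and eggs overlap in most groups, and cysteine, at 3.11% to 3.44% in embryos and 2.66% and 2.72% in eggs, is one in which they do not.

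Groups of tRNAs chosen by structure or copy number were described by their counts and medians. The 10 families of leucine, serine and selenocysteine tRNAs, which have a long variable arm, had a median log2 change of 0.25. Over all 47 families it was -0.01. Of the 10 families, 9 were above 0 (23 of all 47). By DESeq2, 1 of the 10 passed at an unadjusted p under 0.05 (8 of all 47), and none was called. The 4 families whose genes carry an intron in vertebrates (Tyr-GUA, Leu-CAA, Ile-UAU and Arg-UCU) had a median of 0.06. By the first anticodon base, which pairs with the third base of the codon, the medians were -0.01 for A (8 families), -0.02 for C (16), 0.08 for G (8) and 0.07 for U (15). Of 367 transcripts with 1 gene copy, 4 were higher and 6 lower in embryos (2.72% called, against 3.29% of all 607), with a median of 0.00 (-0.02 over all 607). Of 168 with 2 to 5 copies, 1 was higher and 8 lower (5.36%), with a median of -0.02. Of 72 with over 5 copies, 0 were higher and 1 was lower (1.39%; DESeq2, 8 at an unadjusted p under 0.05), with a median of -0.13.

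Transcripts that changed later in development were looked up in embryos against eggs. Bud against sphere embryos, which shares no library with the contrast to eggs, had 121 of 607 transcripts called (19.9%), 83 of them higher (13.7%) and 38 lower (6.26%). Of the 83 that were higher at bud, 1 was higher (tRNA-Tyr-GUA-14) and 2 were lower (tRNA-Lys-CUU-16 and tRNA-Lys-CUU-70) in the early embryos than in eggs (3.61%, against 3.29% of all 607), with a median log2 change of 0.01 (-0.02 over all 607). Of the 38 that were lower at bud, 0 were called by DESeq2 with 4 at an unadjusted p under 0.05, and the median was -0.19, with 28 of the 38 below 0 (73.7%), against 317 of all 607 (52.2%).

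Levels at later stages are given for some of the called transcripts, with no test. Any contrast of a later stage with eggs would share the egg libraries. The transcripts were called against these same eggs, so lying above or below them later is no separate support. tRNA-Arg-UCU-24 had 64.5 and 132 normalized counts at sphere (4 hpf), 53.4 and 71.1 at shield (6 hpf) and 35.7 and 47.3 at bud (10 hpf), all above both eggs. tRNA-Val-AAC-7 had 410.2 and 545 at sphere, 348 and 383 at shield and 226 and 319 at bud, also above both eggs. Not every early rise was seen at each later stage. tRNA-Tyr-GUA-14 had 147 and 178 at sphere, close to the 141 and 172 of eggs, and 400.0 and 306 at shield and 274 and 292 at bud, again above both eggs. Among the falls, tRNA-Val-UAC-24 had 55.2 and 121 at sphere, 35 and 72.2 at shield and 44.3 and 56.2 at bud, all below both eggs. tRNA-Lys-CUU-16 had 282 and 307 at sphere, 199 and 218 at shield and 409.7 and 505 at bud, where it was above both eggs.

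**Figure D5:**
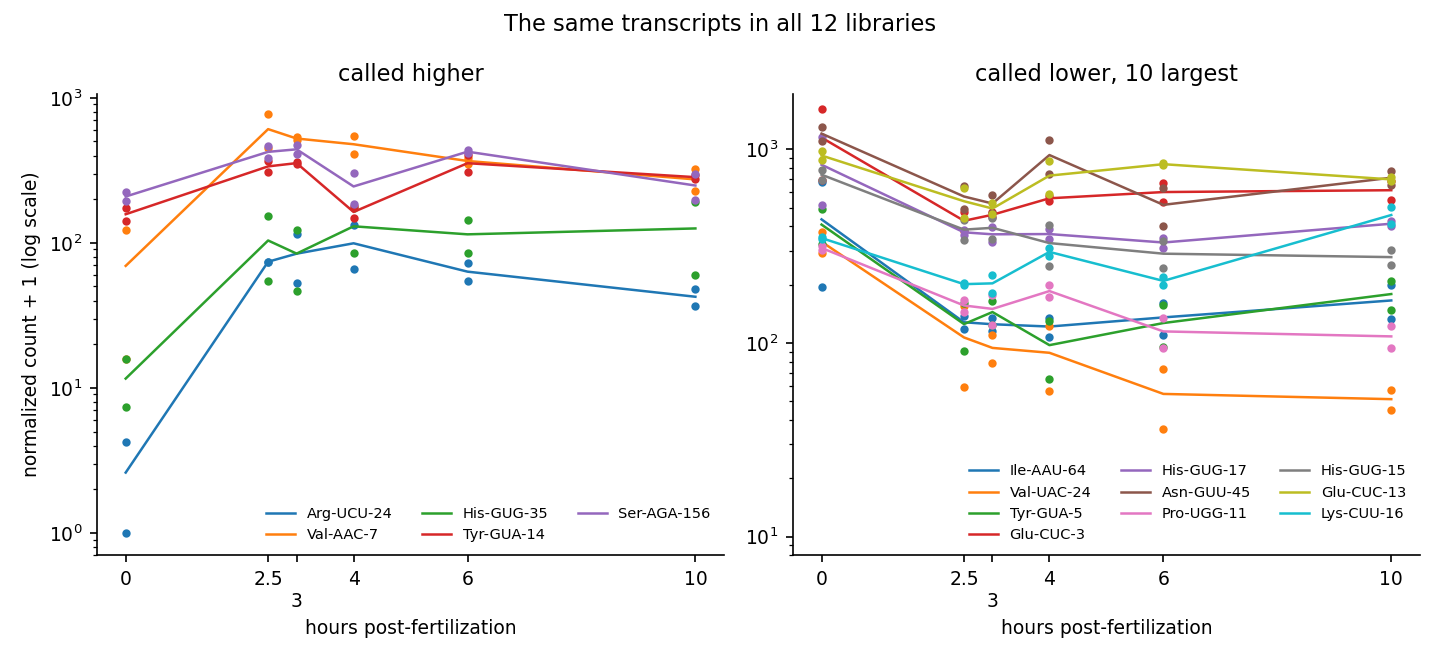
Normalized counts plus 1 (log scale) of the 5 transcripts called higher (left) and the 10 largest falls with groups apart (right) by hours post-fertilization in all 12 abundance libraries, with eggs at 0, 256-cell at 2.5 and 1000-cell at 3 hpf. Points are libraries and lines join the means of 2 libraries per stage. tRNA-Arg-UCU-24 and tRNA-Val-AAC-7 lie above both egg libraries at later stages, but they were called against these same egg libraries.

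Beyond the calls, 22 transcripts had log2 changes over 1 (up to 5.09) and 13 had falls of more than 1 in value (down to -2.60) that did not pass. All 4 embryo libraries lay on one side of both eggs in 14 of the 22 and in 3 of the 13. Over all 607 detected transcripts 24.7% were so placed, and choosing by size of change favours such separation. Several uncalled transcripts in which replicate pools lay far apart are given here, chosen after their values were seen. They do not stand for the rest. tRNA-Lys-UUU-76, a lysine tRNA with 1 gene copy, had 109 and 12.8 normalized counts in 256-cell embryos and 85.6 and 13.2 in 1000-cell embryos, against 0 and 2.68 in eggs (log2 change 5.09 ± 1.89, adjusted p = 0.173). tRNA-Lys-UUU-20 had 89.4 and 23 normalized counts in 256-cell embryos and 77.5 and 21 in 1000-cell embryos, against 12.8 and 9.39 in eggs (2.26 ± 1.60). In both, replicate 1 was high at both embryo stages and replicate 2 was lower, though above both eggs. tRNA-Ser-UGA-10, a serine tRNA with 2 copies, had 515 and 2529 normalized counts in 256-cell embryos and 2777 and 515 in 1000-cell embryos, against 433 and 599 in eggs (1.61 ± 0.74, adjusted p = 0.369). tRNA-Ser-UGA-85 had 73 and 329 normalized counts in 256-cell embryos and 413 and 92.7 in 1000-cell embryos, against 54.6 and 101 in eggs (1.52 ± 0.73), and the glutamine tRNA-Gln-CUG-73 had 147 and 1117 normalized counts in 256-cell embryos and 862 and 202 in 1000-cell embryos, against 209 and 215 in eggs (1.45 ± 0.76). These 3 shared another pattern, in which 256-cell replicate 2 and 1000-cell replicate 1 were high and the other pair of embryo libraries was low. For the alanine tRNA-Ala-UGC-38, which had 72 and 382 normalized counts in 256-cell embryos and 83.9 and 189 in 1000-cell embryos, against 54.6 and 38.9 in eggs, all embryo libraries were above both eggs (1.93 ± 0.67, adjusted p = 0.116). Among the falls, the lysine tRNA-Lys-CUU-35, with 1 copy, had 182 and 70.3 normalized counts in 256-cell embryos and 208 and 107 in 1000-cell embryos, against 116 and 944 in eggs (-1.91 ± 0.70, adjusted p = 0.151), so that egg replicate 2 alone was high. Without that library the log2 change was 0.29, and without egg replicate 1 it was -2.74 and passed (adjusted p = 0.0118). The glutamine tRNA-Gln-CUG-1, with 3 copies, had 1152 and 1663 normalized counts in 256-cell embryos and 1166 and 1718 in 1000-cell embryos, against 4355 and 1765 in eggs (-1.10 ± 0.37, adjusted p = 0.103), and here egg replicate 1 was the high one. Its log2 change was -0.31 without egg replicate 1, and -1.61 without egg replicate 2, where it passed (adjusted p = 0.00113).

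Measures of the pool as a whole overlapped between embryos and eggs. Mitochondrial tRNAs took 17.1% ± 1.05 of all counts in embryos (SD, n = 4) and 17.3% ± 2.37 in eggs (SD, n = 2; exact permutation test, two-sided p = 0.933). The effective number of transcripts, which is the exponential of the Shannon entropy of the resolved transcripts, was 98.4 ± 3.57 in embryos and 96.1 ± 3.66 in eggs (exact two-sided p = 0.533). Unresolved groups took 28.2% ± 1.29 of the nuclear counts in embryos and 26.6% ± 0.736 in eggs (exact two-sided p = 0.267). With 4 against 2 libraries these exact tests cannot go below 0.133.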

How the data were processed

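tRNA abundance was measured by mim-tRNAseq in 12 libraries, 2 per stage. The authors deacylated total RNA, selected the tRNA size range, reverse transcribed it with a thermostable group II intron enzyme and sequenced it. They trimmed the reads with cutadapt 3.5 and aligned them to clustered GRCz11 tRNA references, allowing mismatches at modified bases. The deposited table gives counts of reads that mapped to 1 place, as whole numbers for 2600 entries without normalization by the authors, of which the 22 mitochondrial ones were used for their total alone; gene copy numbers are those of the authors. Sequences and positions of the tRNAs were not analysed here.

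Groups follow the stage labels. DESeq2 1.42.0, the tool of the study's methods, was fitted to all 12 libraries with stage as the only term, and the mean of 256-cell and 1000-cell coefficients was set against eggs. All 2505 single transcripts were fitted, and calls were counted among the 607 detected ones. Benjamini-Hochberg adjustment ran over those that passed DESeq2's default independent filtering on mean count. These were 1081 for embryos against eggs, 990 and 899 for the 256-cell and 1000-cell stage alone, and 2356 for 1000-cell against 256-cell embryos. For edgeR it ran over all 2505, without such filtering. Families and amino acids summed all nuclear entries, unresolved groups included. A normalized count is a count divided by its library's size factor. Total counts were 977425 to 10121680 per library. Alternatives were edgeR 4.0.16, TMM and total-count scaling, fits to the 6 libraries, a replicate block, other detection thresholds and leaving out each library. Single values were compared by exact permutation (scipy 1.17.1). The tests were tried on simulated counts, with 100 detected transcripts changed by 1 on the log2 scale and 100 by 2. There DESeq2 recovered 56% of those changed by 1 and 99% of those changed by 2. How many transcripts changed was set by the simulation, so its number of calls does not bear on how many changed in the real data. The simulated libraries shared no variation by replicate number, so these rates need not hold for the real libraries. Of 407 unchanged detected transcripts, DESeq2 called 7 and edgeR 13. The transcripts named were the calls with up to 10 rises and 10 falls whose groups did not overlap, the 10 most abundant, and those the study names; families and amino acids were named by largest change, abundance or call. Members and lists were chosen with earlier results of these data known. The charging table was not used.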

Additional observations from a re-analysis of the deposited data

Results flagged for a closer look

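Within the 4 embryo libraries, 2 of 49 features tested had a single library far from the other 3, with a gap to the others, as a part of the group's range, above Dixon's 95% critical value. Chance alone gives about 1 such feature in 20. For tRNA-Met-CAU-45, an elongator methionine tRNA, 256-cell replicate 2 was the low one, at 123 normalized counts against 152 to 155 in the other embryo libraries (gap 0.906 of the range), and it was below both eggs as the others were. For tRNA-Ala-CGC-1, an abundant alanine tRNA, 256-cell replicate 2 was the high one, at 79269 normalized counts against 63847 to 65183 in the others (gap 0.913 of the range).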

How the results depend on the processing

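Of 778 results for named tRNAs under other settings, 761 kept their direction. Of the 260 among them that belong to the 20 called transcripts, 133 kept the call and 1 turned its direction. Embryos together against eggs gave 2 called transcripts with edgeR, 11 with TMM factors, 13 with total counts, 7 when only the 6 libraries were fitted, 3 with a detection threshold of 0.05%, and 6 to 20 with 1 library left out. edgeR gave 2 calls at the 256-cell stage and 1 at the 1000-cell stage, and leaving out 1 library gave 3 to 14 and 0 to 16. With 1 library left out, called families numbered 0 to 3 for embryos against eggs and 0 to 1 for 1000-cell against 256-cell embryos, and called amino-acid groups 0 to 3. Embryo minus egg values ran from -1.96 to 1.40 percentage points for mitochondrial tRNAs and from -0.21 to 4.97 for the effective number of transcripts. The log2 changes that turned their sign when 1 library was left out ran between -3.70 and 0.12 for tRNA-Asn-GUU-54, -2.74 and 0.29 for tRNA-Lys-CUU-35, -0.17 and 0.0502 for tRNA-Ala-AGC-3, -0.25 and 0.29 for Thr-UGU-7 and -0.0375 and 0.0905 for Thr-UGU-8, -0.15 and 0.20 for tRNA-Tyr-GUA-2, -0.0812 and 0.42 for tRNA-Gly-UCC-2, -0.12 and 0.42 for tRNA-His-GUG-2, -0.0431 and 0.19 for the family Tyr-GUA, and -0.19 and 0.0798 for initiator methionine. Summing only resolved transcripts turned Lys-UUU to -0.12 and Arg-ACG to -0.0271. The cause was not tested. Replicate numbers were not taken to pair the samples, since no label ties a number to a day or clutch and not every correlation of same-numbered deviations was above 0.1. They were 0.215 (eggs and 256-cell), 0.231 (eggs and 1000-cell) and -0.0289 (256-cell and 1000-cell), and over all 15 pairs of stages they ran between -0.166 and 0.858, with 13 above 0.1, so that some shared variation by number is left. A replicate block gave 32 called transcripts together, 12 higher and 20 lower, with the 20 calls of the main fit among the 32. It gave 27 at the 256-cell stage, 15 at the 1000-cell stage and 2 amino-acid groups. Settings for tRNAs named after their values were seen were added after seeing the data. With 2 egg libraries, and 791432 nuclear counts in one of them, rare tRNAs are the least certain.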

Other observations

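Below the detection threshold of 0.005% of the nuclear counts, 9 further transcripts passed the same DESeq2 test with Benjamini-Hochberg adjustment, 7 higher and 2 lower in embryos. Reads were few in embryos, in eggs or in both, as they were in eggs for tRNA-Arg-UCU-24. The lowest adjusted p, 2.2e-10, belonged to tRNA-Val-AAC-68, a valine tRNA with 5 gene copies. It had 0 and 0 raw counts in 256-cell embryos and 6 and 8 in 1000-cell embryos, against 38 and 77 in eggs. Its reads were thus nearly all from eggs, although the egg libraries were among the shallower ones. Another transcript of the same anticodon, tRNA-Val-AAC-7, was higher in embryos, as were tRNA-Val-AAC-5 and tRNA-Val-AAC-21 (log2 changes 2.13 ± 0.62 and 1.94 ± 0.58, adjusted p = 0.0356 and 0.0435). The arginine tRNA-Arg-CCU-1, with 19 gene copies, had 368 and 79 raw counts in 256-cell embryos and 55 and 61 in 1000-cell embryos, against 2 and 15 in eggs (log2 change 2.60 ± 0.53, adjusted p = 0.000324). tRNA-Arg-UCU-9, of the same anticodon as tRNA-Arg-UCU-24, was lower in embryos (log2 change -2.46 ± 0.60, adjusted p = 0.00746). The lysine tRNA-Lys-UUU-33 had 165 and 11 raw counts in 256-cell embryos and 26 and 7 in 1000-cell embryos, against 1 and 0 in eggs, a ratio of rates of 39.6 (95% exact interval 7.02 to 1570, counting error alone). The remaining 3 were tRNA-Gly-CCC-13, tRNA-Gly-CCC-19 and tRNA-Lys-CUU-50, with log2 changes of 1.46 to 1.89. How these calls change with the processing was not tested.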
